A study of Mus musculus with 12 samples.

Results

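The RUNX transcription factor genes Runx1, Runx2 and Runx3 and the gene of their shared cofactor, Cbfb, were followed in resting and activated splenic B cells of mice in which Runx1 had been conditionally inactivated. The 4 genes were taken by symbol from the deposited table of read counts. Their symbols matched 5 of the 37991 Ensembl identifiers in the table, and 4 of these 5 were among the 13538 genes with enough counts to be tested. The identifier that was not tested is a second annotated Runx2 gene (ENSMUSG00000092206), which had 0 counts in all 12 samples.

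RUNX proteins bind DNA through a Runt domain that is shared by the whole family. CBFβ, the product of Cbfb, does not contact DNA itself but binds the Runt domain, strengthens its hold on DNA and protects RUNX1 from degradation. RUNX1 is required for the emergence of blood stem cells and for early B cell development, RUNX3 is best known in cytotoxic T cells, NK cells and mature lymphocytes, and RUNX2 in bone. The RUNX genes can each be transcribed from a distal and a proximal promoter, and RUNX proteins can regulate the promoters of their own family.

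RNA was sequenced from B cells of mice aged 8 weeks, either at rest (0 h) or after activation for 3 h by anti-IgM plus IL-4, and each of the 4 groups had 3 replicates. The knockout mice (Runx1 c-k/o, labelled CD23iCre/Runx1 ck/o) carried a CD23-Cre transgene and a Runx1 allele with LoxP sites on either side of exon 4, while the controls (Cre-only, labelled CD23-iCre) carried the transgene alone. The Cre gene is under the control of Cd23, which is switched on at the transitional stage, so that Runx1 is present during earlier B cell development in both genotypes. The cells were enriched by depletion of other cell types and of CD43+ B cells. The question asked here was whether Runx2, Runx3 or Cbfb differed in level when Runx1 was inactivated, at rest or at 3 h.

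Each library held between 14442251 and 23641552 counts on genes. Levels are given as normalized CPM, CPM being the count scaled to a common library size, after TMM normalization. The B cell markers Cd79a and Ms4a1 had at least 4936 counts in every library. A pair of Runx1 c-k/o libraries stood apart from their groups. Resting replicate 2 and 3-h replicate 1 correlated with the other replicates of their groups at r = 0.979 to 0.984 (log2 CPM across genes), against 0.989 to 0.994 for all other pairs of replicates. Their deviations from the group means were correlated across genes (0.477), although their replicate numbers differ. Genotype calls on the 4 genes and their partners that change without both libraries are given both ways. For activation such changes are stated for the 4 genes alone. The replicates are described as biological, but no label ties a sample to an animal, and the p-values measure the spread between these samples.

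Exon 4 of Runx1 is shown first, with its counterparts in the other family members, because it is the only exon that the knockout removes. It is 157 bp long (minus strand, chr16:92689221-92689377 of mm9), and it is coding in full in 5 of the 6 annotated Runx1 transcripts. Exons of the same length were found in Runx2 (minus strand, chr17:44861694-44861850) and Runx3 (plus strand, chr4:134711197-134711353). They are written 5′ to 3′ on the strand of the gene, with capitals where all 3 genes have the same base.

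Runx1 exon 4: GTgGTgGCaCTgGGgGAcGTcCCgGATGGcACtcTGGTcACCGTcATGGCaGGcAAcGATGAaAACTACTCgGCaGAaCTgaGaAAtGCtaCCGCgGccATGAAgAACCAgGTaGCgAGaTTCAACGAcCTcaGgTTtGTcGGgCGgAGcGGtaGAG

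Runx2 counterpart: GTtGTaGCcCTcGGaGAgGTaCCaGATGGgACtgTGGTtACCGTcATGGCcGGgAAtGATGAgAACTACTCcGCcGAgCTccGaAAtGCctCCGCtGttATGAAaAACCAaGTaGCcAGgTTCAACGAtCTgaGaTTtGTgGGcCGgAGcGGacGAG

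Runx3 counterpart: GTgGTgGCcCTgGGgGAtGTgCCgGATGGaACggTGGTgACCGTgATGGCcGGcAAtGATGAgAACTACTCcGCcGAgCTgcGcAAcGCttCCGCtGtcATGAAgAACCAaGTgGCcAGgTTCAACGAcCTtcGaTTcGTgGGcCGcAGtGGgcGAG

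The exon of Runx1 was identical to that of Runx2 at 121 of 157 positions (77.1%) and to that of Runx3 at 123 (78.3%), and all 3 genes had the same base at 112 positions (71.3%). The longest run shared by all 3 was 8 bases. The length of the exon is not a multiple of 3. When it was left out of the 5 annotated coding transcripts that contain it, the first stop codon came 5 codons after the new junction in each of them. Exon 4 makes up 2.01% of the 7798 bp of annotated Runx1 exon. The deposited counts cover the whole gene, so they neither separate this exon nor check the genotype labels, and a Runx1 count in c-k/o cells may come from transcripts with or without it.

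The promoter regions of the family were also compared, since RUNX proteins bind the letters AACCACA. Windows from 250 bases before to 50 bases after each RefSeq transcription start (GRCm38.p6) were searched on both strands. The distal windows of Runx1, Runx2 and Runx3 each held AACCACA in tandem, with 1 base between the copies, and the Runx2 window held another copy 81 bases before the start. The copies are shown in capitals, with build GRCm38.p6 coordinates.

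Runx1 distal promoter, chr16:92826026-92826053, minus strand: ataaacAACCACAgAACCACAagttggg

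Runx2 promoter, chr17:44814584-44814611, minus strand: acaaacAACCACAgAACCACAagtgcgg

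Runx3 distal promoter, chr4:135120504-135120531, plus strand: tccctcAACCACAgAACCACAaggccag

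The first copy began at position 28 of the Runx1 transcript and position 23 of the Runx2 transcript, and 135 bases before the start of Runx3. Of 32851 windows of this length, 5.27% held the letters at least once and 0.204% at least 2 times. The tandem was searched only with G between the copies, as in these 3 windows, so tandems with another base there were not counted. It was found in 4 windows, which were these 3 and a window of Gm16225, on the other strand of the same Runx3 region. The proximal windows of Runx1 and Runx3 and the Cbfb window held 0 copies. A match is only a match of letters, and the counts do not separate transcripts by promoter.

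Runx1 (ENSMUSG00000022952, chr16:92601712-92826311 of mm9) was counted at 1399 to 1734 reads per library at rest and 548 to 1265 at 3 h. In resting Cre-only cells its level was 83.6, 81.8 and 86.7 normalized CPM, against 101, 95.7 and 103 in the knockout at rest. After 3 h it was 38.5, 37.0 and 34.9 in the controls, against 47.3, 70.6 and 74.5 in the knockout. All 3 c-k/o samples lay above all 3 Cre-only samples at both times, a separation in either direction that was found for 23.7% of all tested genes at rest and 21.8% at 3 h. The 3-h c-k/o samples were the most spread of the 4 groups, with replicate 1 well under the other replicates (coefficient of variation 22.9%, against 2.95% to 4.95% in the other groups).

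**Figure D1:**
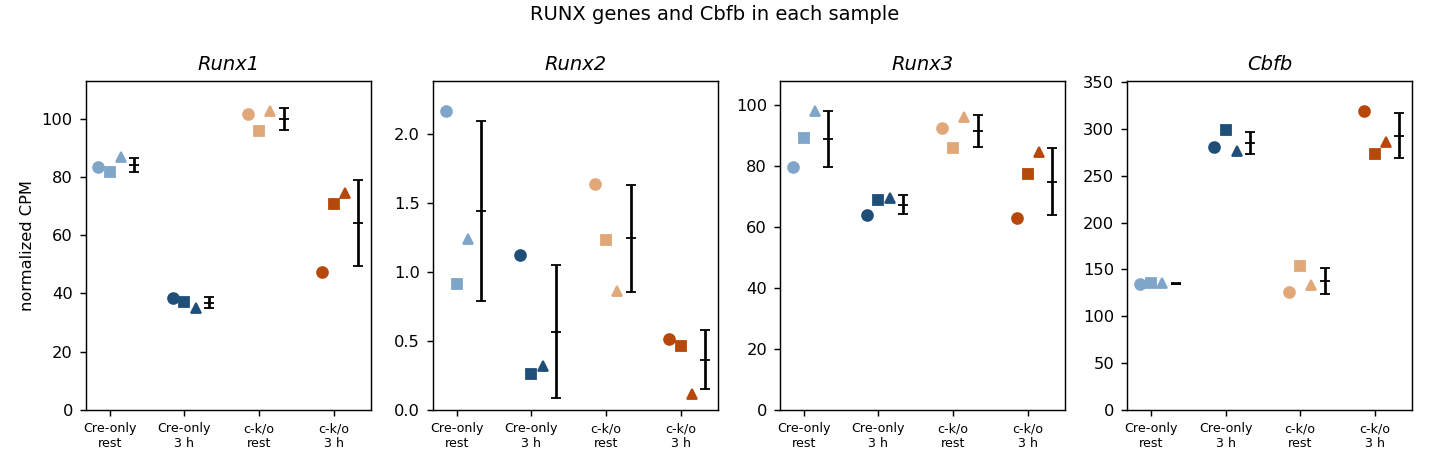
Levels of Runx1, Runx2, Runx3 and Cbfb in each of the 12 samples in normalized CPM, with circles, squares and triangles for replicates 1, 2 and 3 and bars for mean and SD (n = 3); each panel has its own axis from 0. Runx1 and Runx3 are lower and Cbfb higher at 3 h in both genotypes, and all c-k/o samples lie above the Cre-only samples of their time for Runx1.

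Of the 4 genes, Runx1 was the one that differed between genotypes in the quasi-likelihood test of edgeR (Benjamini-Hochberg adjusted over all genes), and it did so at 3 h. It was higher in Runx1 c-k/o cells by 0.80 on the log2 scale (SE 0.138, edgeR adjusted p = 0.00769), which is 1.74-fold with a 95% interval of 1.41 to 2.14. Among all tested genes 2.77% passed this threshold at 3 h. At rest the difference was 0.25 (SE 0.135, edgeR adjusted p = 0.548), with 1.49% of all genes past the threshold. At rest 0 of the 4 genes passed, 0 had an unadjusted p under 0.05 (11.1% of all genes) and 0 passed with DESeq2 (2.79% of all genes).

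The genotype difference in Runx1 was larger at 3 h than at rest by 0.55 on the log2 scale (SE 0.192), a change that had an unadjusted p of 0.0144 and did not pass after adjustment (edgeR adjusted p = 0.728). Only 0.0813% of all genes passed in that comparison. Without both c-k/o libraries that stood apart, the Runx1 difference was 0.28 at rest (edgeR adjusted p = 0.00871), 1.00 at 3 h (edgeR adjusted p = 1.26e-08), and 0.71 for the change between them (edgeR adjusted p = 0.000267). That leaves 2 c-k/o samples in each group. Fitted on the 3-h samples alone, the 3-h difference was 0.82 (edgeR adjusted p = 0.099). With 1 RUVs factor as a covariate, the difference at rest was 0.33 (edgeR adjusted p = 0.012) and the change between times 0.54 (edgeR adjusted p = 0.0135).

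Runx3 (ENSMUSG00000070691, plus strand, chr4:134676567-134733905 of mm9) had overlapping levels in the genotypes at rest, with 79.7, 89.2 and 98.1 normalized CPM among Cre-only samples and 92.7, 85.8 and 96.0 among those of Runx1 c-k/o cells. At 3 h it was 63.8, 68.9 and 69.4 in Cre-only cells and 62.8, 77.3 and 84.6 in c-k/o cells. The genotypes overlapped at both times. At 3 h c-k/o replicate 1 was the lowest of all samples and the other c-k/o samples lay above every Cre-only sample of that time.

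The Runx3 difference between genotypes was 0.04 at rest (SE 0.113, edgeR adjusted p = 0.907) and 0.15 at 3 h (SE 0.114, edgeR adjusted p = 0.491). The 95% intervals ran from 0.867-fold to 1.22-fold at rest and from 0.937-fold to 1.32-fold at 3 h, so that a rise of up to those upper bounds could not be told from no change. Without both c-k/o libraries that stood apart, the 3-h difference was 0.29 (SE 0.0763, edgeR adjusted p = 0.0277) and the resting one 0.09 (edgeR adjusted p = 0.675). Leaving out 3-h replicate 1 alone gave 0.29 at 3 h (edgeR adjusted p = 0.181).

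Because T and NK cells express RUNX3, their markers were read beside it. The defining T cell markers Cd3d, Cd3e and Cd3g had 0 to 17 counts per library, and the NK marker Ncr1 had 0 to 8. Of the 8 NK markers read, Prf1 and Tbx21 had the most, at 15 to 181 and 12 to 205 counts. The summed level of these 8 ran from 8.79 CPM in a 3-h Cre-only library to 18.9 in a 3-h c-k/o library. Of 12 T cell markers 6 passed the filter on low counts. The summed level of all 12 was 41.4 to 50.4 CPM in resting Cre-only, 36.9 to 48.3 in resting c-k/o, 73.3 to 83.1 in 3-h Cre-only and 76.6 to 97.6 in 3-h c-k/o cells. Most of it was Lck, which B cells also express. The part of these markers in the Runx3 level was not tested.

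Runx2 (ENSMUSG00000039153, minus strand, chr17:44632936-44951746 of mm9) was hardly detected. It had 45, 16 and 20 counts in Cre-only cells at rest, 28, 19 and 13 in resting c-k/o cells, 26, 4 and 5 in 3-h Cre-only cells and 8, 7 and 2 in 3-h c-k/o cells. Replicate 1 of the Cre-only cells was the highest of its group at both times. In normalized CPM the group means were 1.44 ± 0.652 (SD, n = 3) and 1.24 ± 0.389 (SD, n = 3) at rest, and 0.567 ± 0.481 (SD, n = 3) and 0.364 ± 0.215 (SD, n = 3) at 3 h, for Cre-only and c-k/o cells. A level under 3 counts, or 0.127 to 0.208 CPM before normalization, is not told from 0 in these libraries, and this floor covers counting error only. Among markers of plasmacytoid dendritic cells, Siglech had 8 to 86 counts per library and Ccr9 17 to 380. In both genotypes Siglech was lower and Ccr9 higher at 3 h. The part of such cells in the few Runx2 reads was not tested.

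The Runx2 difference between genotypes was -0.22 at rest (SE 0.493, edgeR adjusted p = 0.873) and -0.79 at 3 h (SE 0.685, edgeR adjusted p = 0.56). These intervals were wide, from 0.407-fold to 1.80-fold at rest and from 0.206-fold to 1.63-fold at 3 h. The sign turned at both times when Cre-only replicate 1 was left out, to 0.22 at rest and 0.30 at 3 h. The exons of the second annotated Runx2 gene, 2532 bp in all, lie entirely within those of the first, and if reads on both genes were dropped the Runx2 level is an underestimate. At this depth a rise in Runx2 of up to the upper bounds could not be told from no change.

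Cbfb (ENSMUSG00000031885, plus strand, chr8:107694574-107741886 of mm9) did not differ detectably between genotypes. At rest it was 134, 135 and 135 normalized CPM in Cre-only and 126, 153 and 134 in c-k/o cells, and at 3 h it was 281, 299 and 277 in Cre-only and 319, 273 and 287 in c-k/o cells. The highest c-k/o value at each time came from a library that stood apart, resting replicate 2 and 3-h replicate 1. The difference was 0.03 at rest (SE 0.0929, edgeR adjusted p = 0.913) and 0.04 at 3 h (SE 0.0923, edgeR adjusted p = 0.848). The intervals ran from 0.888-fold to 1.18-fold at rest and from 0.893-fold to 1.18-fold at 3 h. Without both libraries that stood apart the values were -0.05 and -0.0055.

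**Figure D2:**
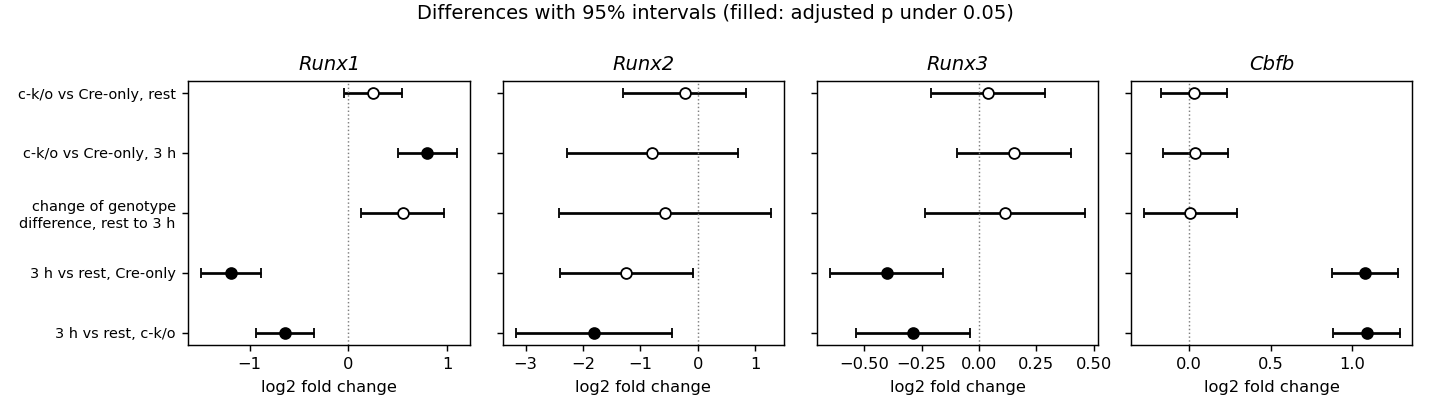
Log2 fold changes of the 4 genes in the 5 comparisons with 95% intervals, from edgeR's fit of all 12 samples; filled points have an adjusted p under 0.05 and each panel has its own axis. Between genotypes the filled point is that of Runx1 at 3 h (0.80), and on activation all points but that of Runx2 in Cre-only cells are filled.

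**Figure D3:**
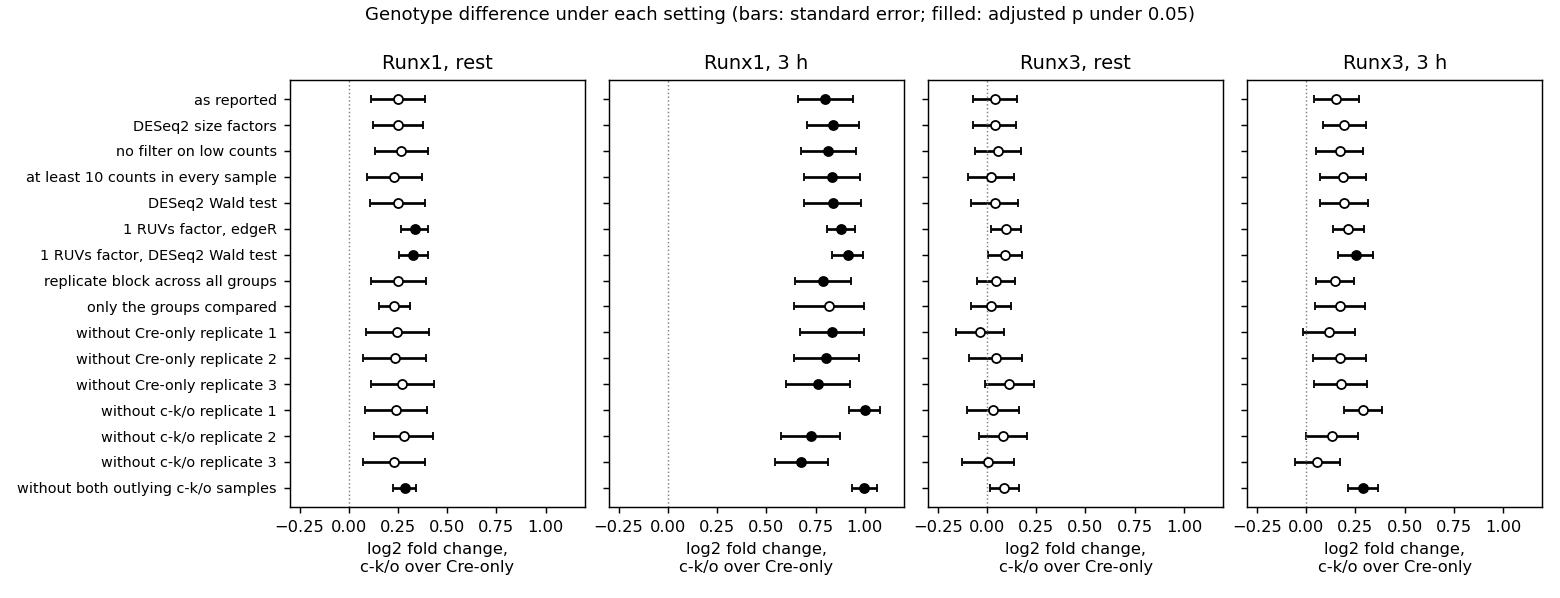
Genotype differences of Runx1 and Runx3 at rest and 3 h (log2 fold change, c-k/o over Cre-only) as reported and under each other setting, with standard errors; filled points have an adjusted p under 0.05 and the outlying samples are resting replicate 2 and 3-h replicate 1. Runx1 at 3 h stays between 0.68 and 1.00, and Runx3 at 3 h is filled in 2 settings.

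Markers of red cells ran higher in the c-k/o libraries, with ranges that overlapped those of the controls at both times. The summed level of 6 erythroid markers was 37.7 to 256 CPM in resting Cre-only and 247 to 411 in resting c-k/o cells, and 12.6 to 137 and 115 to 203 at 3 h, most of it from Hbb-b1 and Hba-a1, while Klf1 reached 0 counts in the lowest library. Their part in the Runx1 difference was not tested.

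Activation moved the family in opposite directions, with Runx1 and Runx3 lower and Cbfb higher at 3 h in both genotypes. In Cre-only cells 3 of the 4 genes passed the test, against 75% of all tested genes, and in c-k/o cells all 4 did, against 74.3%, so passing was no distinction of these genes. In bulk samples fewer cells of a type and less RNA per cell cannot be told apart, and the values are shares of each library, not amounts per cell.

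Runx1 fell by 1.19 on the log2 scale in Cre-only cells (SE 0.138, edgeR adjusted p = 6.59e-06) and by 0.64 in c-k/o cells (SE 0.136, edgeR adjusted p = 0.000978), with no overlap between times in either genotype. Runx3 fell by 0.40 in Cre-only cells (SE 0.113, edgeR adjusted p = 0.00641) and by 0.29 in c-k/o cells (SE 0.113, edgeR adjusted p = 0.036), also without overlap. Samples of different times did not overlap for 84.4% of all genes in Cre-only and 72.8% in c-k/o cells. Runx2 fell in c-k/o cells by 1.81 (SE 0.628, edgeR adjusted p = 0.0201). Its counts in the 3-h c-k/o samples were 8, 7 and 2, under the filter's minimum count of 10. Runx2 thus entered the test through its resting samples, where it was higher, and this fall is not independent of the filter. In the fit without a filter all 4 members passed in c-k/o cells. In Cre-only cells the Runx2 value was -1.24 (SE 0.534, edgeR adjusted p = 0.0511). That comparison passed in edgeR without both c-k/o libraries that stood apart. It also passed without Cre-only resting replicate 2 and without Cre-only 3-h replicate 1. The fall of Runx3 in c-k/o cells missed the threshold in 4 of the 6 fits without 1 of their samples, at -0.28 without resting replicate 1, -0.25 without resting replicate 3, -0.19 without 3-h replicate 1 and -0.30 without 3-h replicate 2 (edgeR adjusted p from 0.0596 to 0.11). The fall of Runx2 there missed it without resting replicate 1 (-1.55) and without 3-h replicate 3 (-1.35, edgeR adjusted p = 0.0735 and 0.0802).

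Resting and 3-h samples of Cre-only cells that share a replicate number deviated together from their group means, and with these numbers as a replicate block the Runx2 value in Cre-only cells was -1.39 (edgeR adjusted p = 0.00674). Cbfb rose by 1.08 in Cre-only cells (SE 0.0936, edgeR adjusted p = 5.11e-07) and by 1.09 in c-k/o cells (SE 0.0936, edgeR adjusted p = 5.73e-07), which is 2.12-fold and 2.13-fold. The rise was nearly the same size in both genotypes, with a difference of 0.0076 and a 95% interval of -0.28 to 0.29.

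The falls of Runx3, and that of Runx1 in c-k/o cells, did not pass with 1 factor of unwanted variation in the fit. In edgeR the Runx3 value was then -0.056 in Cre-only cells (edgeR adjusted p = 0.714) and 0.063 in c-k/o cells (edgeR adjusted p = 0.684), and the Runx1 value in c-k/o cells was -0.12 (edgeR adjusted p = 0.37). That factor itself moved with time, from 0.101 to 0.694 in the resting and -1.39 to -0.251 in the 3-h samples. In this fit the Runx1 fall in Cre-only cells and both rises of Cbfb still passed. The summed level of 11 monocyte, macrophage and neutrophil markers also fell with time, from 241 to 467 CPM in resting c-k/o cells to 31.8 to 62.3 at 3 h and from 274 to 335 to 28.3 to 38.8 in Cre-only cells, and its part in the falls was not tested.

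To compare the levels of different genes, normalized CPM was divided by the length of each gene's annotated exons in kb. In every group the order was Cbfb, Runx3, Runx1, Runx2, and the samples of neighbouring genes in this order did not overlap. In resting Cre-only cells Cbfb was at 46.3 ± 0.241 CPM per kb (SD, n = 3), Runx3 at 17.8 ± 1.84 (SD, n = 3), Runx1 at 10.8 ± 0.318 (SD, n = 3) and Runx2 at 0.163 ± 0.0738 (SD, n = 3). In resting c-k/o cells the levels were 47.3 ± 4.84, 18.3 ± 1.03, 12.8 ± 0.481 and 0.141 ± 0.0440 CPM per kb (SD, n = 3 each). Per length, Cbfb lay above 91.5% of tested genes and Runx3 above 75.9% in resting Cre-only cells, Runx1 above 63.9% and Runx2 above 3.75%.

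At 3 h the order was the same. In Cre-only cells Cbfb was at 98.0 ± 4.00 CPM per kb, Runx3 at 13.5 ± 0.624, Runx1 at 4.72 ± 0.234 and Runx2 at 0.0642 ± 0.0545 (SD, n = 3 each). In c-k/o cells Cbfb was at 100.7 ± 8.18, Runx3 at 14.97 ± 2.22, Runx1 at 8.23 ± 1.89 and Runx2 at 0.0412 ± 0.0243 (SD, n = 3 each). Runx3 was 1.65 times as high as Runx1 per length in resting Cre-only cells and 2.85 times at 3 h, and in c-k/o cells 1.43 times and 1.82 times.

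The summed level of the 3 RUNX genes was 28.7 ± 2.002 CPM per kb in resting Cre-only and 31.2 ± 1.498 in resting c-k/o cells, and at 3 h it was 18.3 ± 0.387 and 23.2 ± 4.06 (SD, n = 3 each). The share of Runx1 in that sum was 37.6% ± 1.99 and 41.0% ± 0.458 at rest, and 25.9% ± 1.72 and 35.1% ± 2.34 at 3 h (SD, n = 3 each). Nearly all of the rest was Runx3, since the share of Runx2 was at most 0.912% in any sample. Cbfb was at 1.62 ± 0.104 times the summed RUNX level in resting Cre-only and 1.52 ± 0.227 times in resting c-k/o cells, and at 5.37 ± 0.185 and 4.47 ± 1.22 times at 3 h (SD, n = 3 each). In c-k/o cells the Runx1 part of these values may come from transcripts without exon 4. The sums, shares and ratios are therefore of RNA and do not give the amount of RUNX protein. The study reported no RUNX1 protein in mature resting B cells of these mice.

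The summed level, the Runx1 share and the Cbfb ratio were compared between genotypes at each time and between times in each genotype, 12 tests in all, by two-sided exact permutation tests. The smallest p that 3 samples against 3 can give is 0.1, and 9 of the 12 tests gave it (0.133 after Benjamini-Hochberg adjustment), so none could pass 0.05. At 3 h the samples did not overlap between genotypes for the summed level or for the Runx1 share, and at rest not for the share. Among single genes such a separation in either direction was found for 21.8% at 3 h and 23.7% at rest. The sum and the share both contain Runx1, whose samples separated at both times, so they add no separate result. The Cbfb ratio overlapped between genotypes at both times, with an exact permutation p of 0.6 at rest and 0.4 at 3 h (0.6 and 0.436 adjusted). In c-k/o replicate 1 at 3 h the summed level was 18.7 CPM per kb, within reach of the Cre-only range of 17.8 to 18.6, while the other c-k/o replicates were at 24.6 and 26.5.

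**Figure D4:**
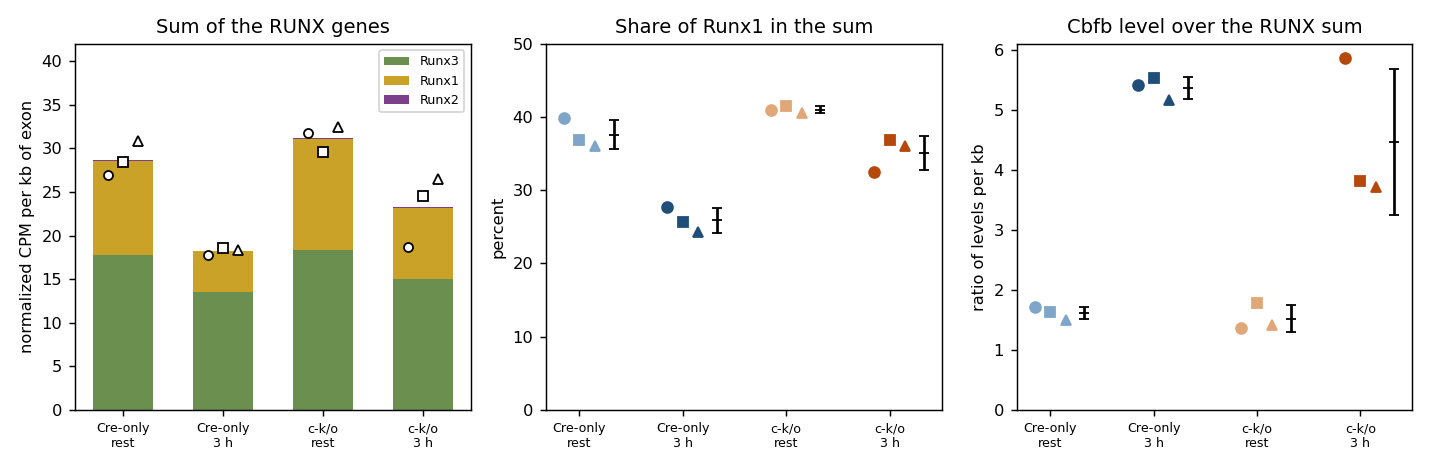
Left, mean normalized CPM per kb of exon of Runx3, Runx1 and Runx2 stacked by group, with the sum in each sample as open symbols; middle, the share of Runx1 in the sum in percent; right, the ratio of the Cbfb level to the sum, each with mean and SD (n = 3) and circles, squares and triangles for replicates 1, 2 and 3. At 3 h the Runx1 share is 24.3% to 27.7% in Cre-only and 32.5% to 36.9% in c-k/o cells.

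The partners of RUNX proteins were read from 5 lists of coactivators, corepressors, remodelling and Polycomb proteins, DNA-binding partners, and enzymes that modify or degrade RUNX proteins. Of 81 genes 73 were tested. Yap1, Wwtr1, Runx1t1, Erg, Gata1, Gata2, Gata3 and Tal1 had at most 29 counts in any library and were not tested. At rest 0 of the 73 differed between genotypes by edgeR's test, with 7 at an unadjusted p under 0.05 (all genes 11.1%), and the median log2 fold change was 0.00 against 0.03 over all tested genes. At 3 h 1 of the 73 passed (1.37%, against 2.77% of all genes), with 14 at an unadjusted p under 0.05 (all genes 16.2%) and a median of -0.02 against 0.01 over all genes. For the change between rest and 3 h 0 passed in edgeR (all genes 0.0813%), 0 passed with DESeq2 and 6 had an unadjusted p under 0.05 (all genes 5.07%).

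Other settings were read for the same partners, and those not yet introduced are named after their values were seen. With DESeq2, with 1 RUVs factor and without both c-k/o libraries that stood apart, the share of all genes past the threshold was also higher. With only the compared groups 0 partners passed at rest (223 of 12938 genes) and 0 at 3 h (158 of 12228 genes). DESeq2, which gave an adjusted p for 72 of the 73, called 2 at rest (all genes 2.79%), Bmi1 and the kinase gene Pim1, and 2 at 3 h (all genes 5.44%), Lyl1 and Cebpb, a leucine zipper factor gene, with 0.584% of all genes past the threshold for the change. With 1 RUVs factor in edgeR, 2 passed at rest (all genes 3.87%), again Bmi1 and Pim1. At 3 h 4 passed in that fit (all genes 7.65%), Lyl1, the ETS factor gene Elf1, the acetyltransferase gene Crebbp and the corepressor gene Sin3a. For the change it called 3 (all genes 1.05%), Lyl1, Elf1 and Pim1. With 1 RUVs factor in DESeq2, Lyl1, Cebpb, Elf1, Crebbp, Sin3a, Ets2, Fos and Tle4 passed at 3 h (1235 of 13538 genes). In that fit Bmi1, Pim1 and Aes passed at rest (611 of 13538 genes). Lyl1, Elf1, Pim1 and Lmo2 passed for the change (250 of 13538 genes). In edgeR Fos passed at 3 h without c-k/o replicate 3 (2.99, edgeR adjusted p = 0.0239). Its 3-h level was 5.60, 45.1 and 3.89 CPM in c-k/o and 2.93, 3.59 and 3.12 in Cre-only cells, so the difference rests mostly on c-k/o replicate 2. Without both c-k/o libraries that stood apart, Crebbp, Sin3a and Cebpb did not pass at 3 h. They were then at -0.07, -0.13 and 0.69 (edgeR adjusted p = 0.527, 0.166 and 0.248).

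Without both c-k/o libraries that stood apart, 3 partners passed at rest (all genes 4.35%), 4 at 3 h (6.65%) and 3 for the change (1.36%). At rest these were Bmi1, Pim1 (0.22, against 0.30 with all samples, edgeR adjusted p = 0.0286 and 0.186) and Smad3 (-0.25, against 0.08, edgeR adjusted p = 0.0391 and 0.879). At 3 h they were Lyl1, Smad3 (-0.41, against -0.53, edgeR adjusted p = 0.00019 and 0.193), Elf1 (-0.25, against -0.43, edgeR adjusted p = 0.00785 and 0.131) and the Groucho gene Tle4 (0.23, against 0.14, edgeR adjusted p = 0.00953 and 0.416). For the change they were Lyl1 (0.38, against 0.51), Pim1 (-0.38, against -0.42) and Tle4 (0.32, against 0.17), with edgeR adjusted p from 0.0182 to 0.0435 without the libraries and from 0.577 to 0.999 with them.

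The partner that passed at 3 h in the fit of all samples was Lyl1, a basic helix-loop-helix factor that works with RUNX1 in blood progenitors. It was at 37.6, 39.5 and 35.9 normalized CPM in 3-h Cre-only cells and 74.3, 57.2 and 54.1 in 3-h c-k/o cells, all above the controls. Such a separation in either direction was found for 21.8% of all tested genes at 3 h. The difference was 0.72 (SE 0.109, edgeR adjusted p = 0.00335), and it was 0.59 without both c-k/o libraries that stood apart (edgeR adjusted p = 1.15e-05). Fitted on the 3-h samples alone it was 0.73 and did not pass (edgeR adjusted p = 0.0516). At rest Lyl1 was at 73.1, 71.0 and 72.3 CPM in Cre-only and 80.9, 84.7 and 84.8 in c-k/o cells.

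Among the chromatin factors, Bmi1, a subunit of Polycomb complexes, was at 74.1, 77.7 and 81.3 CPM in resting Cre-only and 93.5, 98.9 and 98.0 in resting c-k/o cells. The genotypes did not overlap, as was found in either direction for 23.7% of all tested genes at rest. Its difference was 0.32 (SE 0.0768, edgeR adjusted p = 0.0766), and it passed without both libraries that stood apart (0.31, edgeR adjusted p = 0.00755). The values at rest were 0.09 for Srcap and 0.01 for Smarca4, both remodelling ATPases, 0.01 for Rnf2 and 0.17 for Ring1, ubiquitin ligases of Polycomb complexes, and -0.02 for Ezh2, the histone methyltransferase of Polycomb (edgeR adjusted p from 0.685 to 0.967). At 3 h they were 0.04 for Srcap, -0.13 for Smarca4, -0.16 for Rnf2, 0.15 for Ring1, 0.05 for Bmi1 and -0.07 for Ezh2 (edgeR adjusted p from 0.368 to 0.834). Srcap has a pair of identifiers in the table, and the one with more counts was used, so its level is uncertain.

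**Figure D5:**
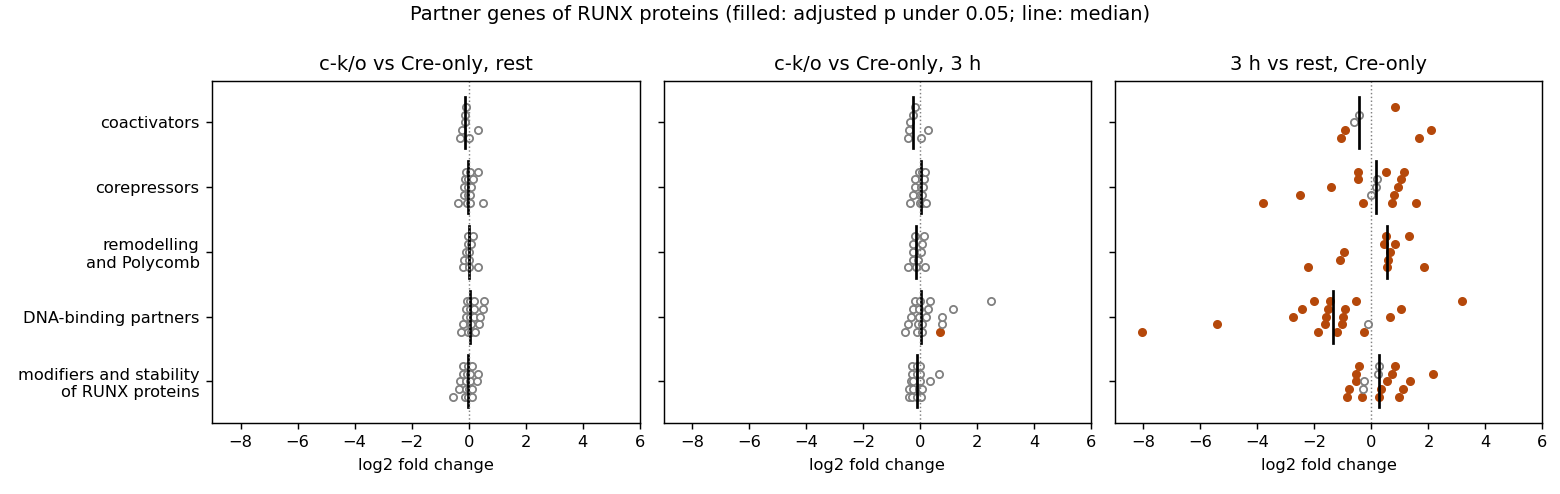
Log2 fold changes of the 73 tested partner genes by list, between genotypes at rest, between genotypes at 3 h, and between 3 h and rest in Cre-only cells, with lists in rows, a line at each list's median and filled points for an adjusted p under 0.05. The genotype panels hold 1 filled point, Lyl1 at 3 h (0.72), and the activation panel 63.

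On activation 63 of the 73 partner genes passed in Cre-only cells, 30 higher and 33 lower (86.3%, against 75% of all genes), and 61 in c-k/o cells, 29 higher and 32 lower (83.6%, against 74.3%). Of the 20 tested DNA-binding partners 16 fell and 3 rose in Cre-only cells, with a median of -1.34 against 0.03 over all genes. Among them were Pax5, which maintains B cell identity (-2.003, SE 0.107, edgeR adjusted p = 2.08e-08), the E protein gene Tcf3 (-1.53, SE 0.0796, edgeR adjusted p = 1.75e-08) and the ETS factor Fli1 (-1.89, SE 0.106, edgeR adjusted p = 2.52e-08), while Smad3, which relays TGFβ signals, rose by 3.18 (SE 0.204, edgeR adjusted p = 5.67e-08). In c-k/o cells 15 fell and 3 rose, with a median of -1.37 against 0.00, and Pax5, Tcf3 and Fli1 were at -1.99, -1.50 and -1.99, with Lmo2, a bridging protein of such complexes, at -2.22 (edgeR adjusted p from 2.82e-08 to 4.6e-08). Lmo2 also fell in Cre-only cells, by 1.61, and Smad3 also rose in c-k/o cells, by 2.58 (edgeR adjusted p = 2.51e-07 and 2.69e-07).

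All 11 remodelling and Polycomb genes passed in both genotypes, 8 higher and 3 lower, against 75% of all genes in Cre-only and 74.3% in c-k/o cells. In Cre-only cells Smarcc1, a subunit of the BAF remodeller, rose by 1.85 (SE 0.103, edgeR adjusted p = 2.44e-08) and Ezh2 by 1.31 (SE 0.102, edgeR adjusted p = 2.31e-07), and Smarca2, an ATPase of the same remodeller, fell by 2.22 (SE 0.163, edgeR adjusted p = 1.51e-07). Srcap rose by 0.45 in Cre-only and 0.40 in c-k/o cells, Smarca4 by 0.66 and 0.52, Rnf2 by 0.55 and 0.37, Ring1 by 0.53 and 0.51, and Bmi1 by 0.82 and 0.56 (edgeR adjusted p from 9.87e-07 to 0.00517). Smarcb1, another subunit of the BAF remodeller, rose by 0.56 in Cre-only and 0.74 in c-k/o cells (edgeR adjusted p = 0.000242 and 2.73e-05).

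Of 16 tested corepressors 7 rose and 6 fell in Cre-only cells (81%, against 75% of all genes). In c-k/o cells 6 of these corepressors rose and 5 fell (69%, against 74.3%). Cbfa2t3, of the ETO family that is fused to RUNX1 in leukaemia through its relative Runx1t1, had the largest change among them, from 54.3 to 3.87 CPM in Cre-only cells (-3.79, SE 0.281, edgeR adjusted p = 1.58e-07) and from 41.8 to 3.93 in c-k/o cells (-3.42, SE 0.283, edgeR adjusted p = 4.4e-07). The histone deacetylase gene Hdac2 rose by 1.57 and 1.56 and the Groucho gene Tle4 by 0.72 and 0.89, while Aes, a short Groucho relative, fell by 1.44 and 1.60 (edgeR adjusted p from 2e-07 to 6.15e-06). Of 7 tested coactivators 3 rose and 2 fell in each genotype (71.4%, against 75% and 74.3% of all genes). The arginine methyltransferase genes Prmt1 and Carm1 rose by 2.08 and 1.69 in Cre-only and 2.02 and 1.52 in c-k/o cells, the RNA export factor gene Alyref by 0.83 and 0.99, and the acetyltransferase gene Kat6b fell by 1.07 and 1.22 (edgeR adjusted p from 6.96e-08 to 0.000684).

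Of 19 genes for enzymes that modify or degrade RUNX proteins, 9 rose and 6 fell in Cre-only cells (78.9%, against 75% of all genes). In c-k/o cells 9 rose and 7 fell (84.2%, against 74.3%). The deubiquitinase gene Usp7 rose by 0.98 and 0.95 and the phosphatase gene Ptpn11 by 0.81 and 0.70, while the kinase gene Mapk3 fell by 0.85 and 0.89 (edgeR adjusted p from 1.29e-06 to 1.84e-05). Of the ubiquitin ligase genes Mdm2 and Stub1, Mdm2 fell by 0.55 and 0.51 and Stub1 rose by 1.36 and 1.39 in Cre-only and c-k/o cells (edgeR adjusted p from 1.99e-05 to 4.12e-05).

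The genes whose pattern over the 12 samples was most like that of each member were found by Pearson correlation of log2 CPM. The 12 samples share 2 times and 2 genotypes, and these values are a description without a test. For Runx1 they were Ifit2 (r = 0.981), an interferon-induced gene, Nedd4 (r = 0.981), a ubiquitin ligase gene, and Gm4955 (r = 0.977). Like Runx1, Nedd4 was lowest in 3-h Cre-only cells, with means of 157 and 13.5 CPM at rest and 3 h in Cre-only and 267 and 56.6 in c-k/o cells. For Runx3 they were Shank1 (r = 0.960), Csdc2 (r = 0.946) and Zufsp (r = 0.939), for Runx2 Dtx3 (r = 0.945), Atp1b1 (r = 0.925) and Gm10561 (r = 0.920), and for Cbfb Nom1 (r = 0.999), Ttc27 (r = 0.999) and 2610027L16Rik (r = 0.999).

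How common such likeness was differed between the members. With Cbfb 3689 tested genes correlated at r above 0.9, with Runx1 210, with Runx3 56 and with Runx2 6. Between members, Runx1 correlated with Runx3 at r = 0.894 (Spearman's rho 0.846) and with Cbfb at -0.820 (rho -0.818), and Runx3 with Cbfb at -0.829 (rho -0.811), over points that fall into resting and 3-h samples.

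Some genes overlap a member in the annotation. Gm16801 shares 106 bp of exon with Runx1 on the other strand and had 1 to 13 counts per library. Gm10497 shares 519 bp with Runx2 on the other strand and had 0 to 2. Supt3h, a gene of the SAGA family, overlaps Runx2 on the other strand without shared exon sequence and had 125 to 269.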

How the data were processed

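Poly(A)-selected, stranded mRNA libraries with added ERCC spike-in RNA were sequenced. Alignment by the authors was to mm9 with Ensembl annotation with counting on genes, and the processing notes name CASAVA 1.8.4, TopHat2 2.0.11 and featureCounts. The deposited values are raw counts per Ensembl gene. The counting's strand and overlap settings are not given in the sources used here. Spike-in counts were not used here. Symbols, exons and coordinates came from the GENCODE annotation of mm9 (37205 of 37991 identifiers named), and promoter windows from RefSeq, where all 4 members matched.

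Genes passing filterByExpr (minimum count 10) were fitted in edgeR 4.0.16 (R 4.3.3) with TMM scaling and a robust quasi-likelihood fit of all 12 samples as 4 groups. P-values were adjusted by Benjamini-Hochberg over 13538 genes, with 0.05 as threshold. Exact permutation tests were run with Python 3.11.15. The tests were checked on simulated data, drawn for each gene on its own and without outlying libraries. Of 200 genes changed between genotypes at 3 h, edgeR recovered 136 with 8 false calls and DESeq2 146 with 30. Members and lists were chosen with earlier results of these data known. Named partners were the passing genes with the smallest adjusted p, at most 4 per list and comparison, and 6 chromatin factors chosen by name, with the 3 genes most like each member and genes overlapping one. Partners called under other settings alone were named after their values were seen. Alternatives were DESeq2 1.42.0, its size factors, other filters, 1 RUVs factor, replicate blocks, only the compared groups, and each sample left out. The fits without both outlying libraries and with the Runx2 exon length outside the second Runx2 gene were added after seeing the data.

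Cre-only samples with the same number at rest and 3 h had correlated deviations (0.144 to 0.275). The reported test did not pair them, and only the fits with a replicate block did. For same-numbered c-k/o samples the correlation ran from -0.264 to 0.254, and across genotypes from -0.0665 to 0.068. No replicate pair agreed within sampling noise (chi-square per gene 2.85 to 75.9).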

Additional observations from a re-analysis of the deposited data

How the results depend on the processing

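Values are log2 fold changes. Over the other settings run, the Runx1 difference at 3 h, the Runx1 fall in Cre-only cells and both rises of Cbfb kept their direction. These passed throughout, except that the 3-h Runx1 difference was 0.82 (edgeR adjusted p = 0.099) with only the compared groups. With 1 RUVs factor, in edgeR and DESeq2 in turn, Runx1 passed at rest (0.33 and 0.33) and for its change to 3 h (0.54 and 0.59). On activation, values that no longer passed were -0.056 and -0.16 for Runx3 in Cre-only cells, 0.063 and -0.0021 for Runx3, -0.12 and -0.19 for Runx1 and -2.25 and -2.37 for Runx2 in c-k/o cells. Runx3 at 3 h passed at 0.25 in DESeq2, adjusted p = 0.0484. Cbfb turned sign to -0.014 (edgeR) and -0.020 (DESeq2) at rest, -0.015 at 3 h and -0.0014 for the change between them (edgeR). Runx3 on activation of c-k/o cells missed the threshold with only the compared groups (-0.30, edgeR adjusted p = 0.0901).

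Runx2 on activation of Cre-only cells passed with DESeq2's size factors (-1.32), without a filter (-1.28), with DESeq2 (-1.38), with only the compared groups (-1.29), and with the replicate block across all groups (-1.34) or within genotype (-1.39). The replicate block changed no other call of the 4 genes. The c-k/o numbers did not pair the samples. Runx2 could not be tested with at least 10 counts in every sample, or between genotypes in the 3-h samples alone.

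With samples left out, singly or both outlying libraries together, Runx1 at rest ranged from 0.23 to 0.28 and its change to 3 h from 0.43 to 0.76, passing at 0.76 without 3-h c-k/o replicate 1. Between genotypes Runx2 ranged from -0.48 to 0.22 at rest, -1.13 to 0.30 at 3 h and -1.01 to 0.52 for the change, Runx3 from -0.035 to 0.11 at rest and 0.057 to 0.29 at 3 h, and Cbfb from -0.056 to 0.092 at rest, -0.0055 to 0.087 at 3 h and -0.054 to 0.094 for the change. On activation Runx2 ranged from -2.32 to -0.80 in Cre-only cells, passing in 3 of 7 fits, and from -2.20 to -1.35 in c-k/o cells. Runx3 ranged from -0.38 to -0.19 in c-k/o cells, where it passed in 2 of 6 fits without 1 sample (c-k/o resting replicate 2 or 3-h replicate 3).

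With the longest transcript as length, the RUNX sum in Cre-only cells was 34.9 CPM per kb at rest and 22.6 at 3 h, and 37.8 and 28.4 in c-k/o cells. The Runx1 share was 33.9% and 22.9% in Cre-only and 37.2% and 31.5% in c-k/o cells, and the Cbfb ratio 1.33 and 4.34 in Cre-only and 1.26 in resting c-k/o cells. With DESeq2's size factors the sum in 3-h Cre-only cells was 17.6. The Runx2 length outside the second gene moved none of these beyond 1 SD. Over all settings the genes past the threshold ranged from 81 to 611 at rest, 158 to 1235 at 3 h and 4 to 250 for the change. The cause of these shifts was not tested. Counts of 2 to 45 limit Runx2.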
